A study of Sus scrofa with 12 samples.

Results

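HOX genes were examined in 12 RNA sequencing libraries of pig PC-iPS cells, induced pluripotent stem cells made from pericytes, the contractile cells of small vessel walls. Members were all genes of the deposited tables whose symbol is HOX followed by A, B, C or D and a number, and 35 of 24358 genes met this rule. Of these, 9 belong to the HOXA, 10 to the HOXB, 7 to the HOXC and 9 to the HOXD cluster. The values are FPKM, fragments scaled to the length of the gene's exons and to the mapped reads of the library, so levels can be compared between genes.

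HOX genes encode homeodomain transcription factors that give cells their position along the head to tail axis. They lie in 4 clusters, and within a cluster the order of the genes follows the order in which they act: low numbers (paralogue groups) towards the head, high numbers towards the tail and the ends of the limbs. In pluripotent cells the clusters are known to be held mostly silent by Polycomb complexes, while adult mesenchymal cells such as fibroblasts keep a HOX pattern that goes with the body site they came from.

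The study made a NANOG tdTomato reporter by CRISPR/Cas9 knock-in and asked how NANOG level affects RNA expression and which cytokine pathways regulate NANOG. There were 4 groups of 3 libraries: WT PC-iPS cells, PC-iPS cells positive for the NANOG tdTomato knock-in, and knock-in positive cells treated either with Activin A, an activator of SMAD2/3 signalling, or with SB431542, an inhibitor of the same pathway. All groups share the pericyte origin and the reprogramming. The labels give LCDMV, a medium with LIF, CHIR99021, dimethindene, minocycline and vitamin C, for every library, whereas the methods of the study describe the cytokine experiments in this medium without LIF. The 3 knock-in lines came from independently transfected cultures selected with puromycin and sorted for tdTomato, and each is a mixed population in which cells can differ in the inserted alleles. The labels number the libraries 1 to 3 in each group, and the knock-in numbers are those of the lines. For the WT, Activin A and SB431542 libraries no source used here says that a number stands for a separate culture or line, so p values there measure the spread between libraries, which may be technical. The labels give the developmental stage as adult, and the source pericytes were not among the samples used here.

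The targeted gene followed the labels. NANOG read 52.0, 101 and 70.4 FPKM in knock-in libraries 1 to 3 and 9.71, 16.4 and 27.6 in WT libraries 1 to 3 (log2 fold change 2.06, SE 0.37, limma adjusted p = 0.0250). It read 109, 195 and 157 with Activin A and 11.8, 27.2 and 11.8 with SB431542 (3.18, SE 0.35, limma adjusted p = 0.0424). Total depth is unknown from FPKM, but relative depth, estimated from low values with knock-in library 1 set to 1, was 0.564 to 0.635 in WT and 0.730 to 1 in the other groups, so very low HOX values were resolved least well in WT. Between 15339 and 15827 genes were above 0 per library.

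A few HOXD and HOXC genes carried most of the HOX RNA in these cells. A member was counted as expressed when the mean of a group was at least 0.1 FPKM, and 14 of 35 reached this in at least 1 group. HOXD8, HOXD4, HOXC6, HOXA7 and HOXD3 reached it in all 4 groups. WT PC-iPS cells expressed these 5 only (4 of them without WT library 2), whereas 10 members were expressed in knock-in positive cells, 12 with Activin A and 11 with SB431542. The other 21 members stayed below 0.1 FPKM in every group, with no library above 0.120, and HOXA4, HOXB1, HOXC12 and HOXD12 were listed at 0 in all 12 libraries. Around the threshold, the highest group means were 0.129 for HOXB9, 0.130 for HOXD1 and 0.139 for HOXC4 just inside, and 0.0757 for HOXA11, 0.0699 for HOXB3 and 0.0565 for HOXC13 just outside.

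**Figure D1:**
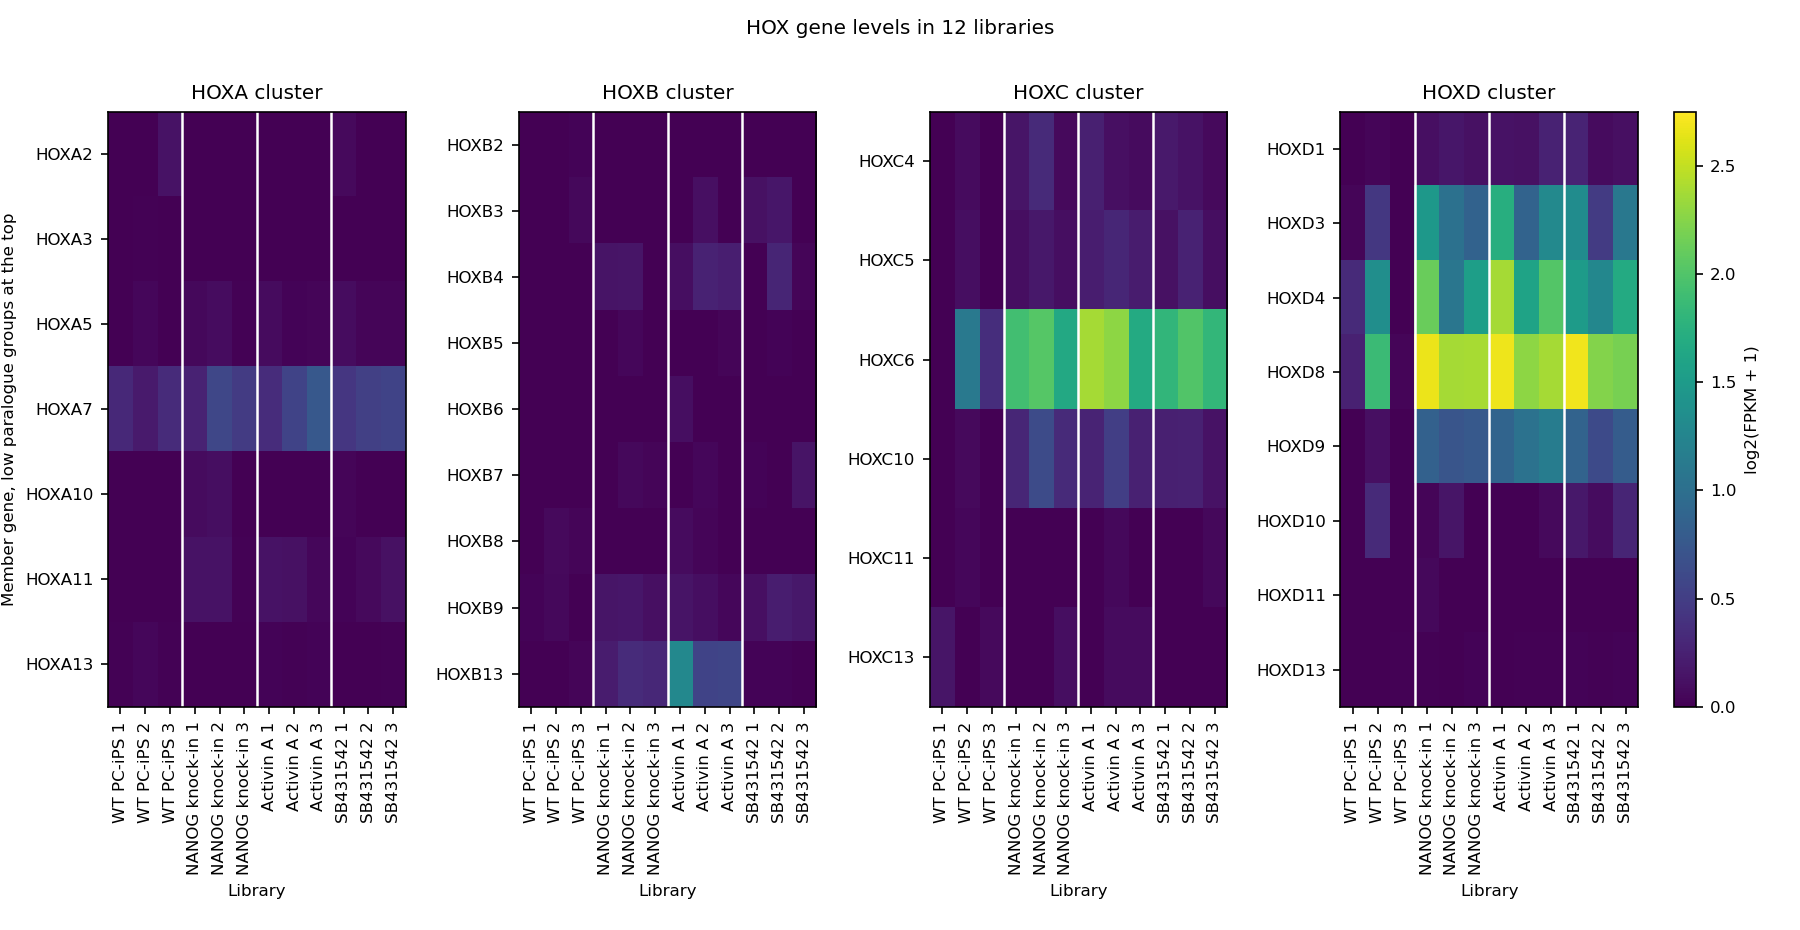
Level of each HOX member above 0 in at least 1 library (rows, ordered by paralogue group within each cluster) in the 12 libraries (columns, white lines between groups) as log2(FPKM + 1), shown by colour. HOXD3, HOXD4, HOXD8, HOXD9 and HOXC6 form the bright rows in the knock-in positive, Activin A and SB431542 libraries, and among the WT columns only library 2 shows a similar but fainter pattern.

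The expressed members were unevenly spread over the clusters. On Sscrofa11.1, with gene positions from RefSeq matched by symbol for 32 of 35 members (none for HOXB4, HOXB9 and HOXD4), the HOXD members span chromosome 15 from 81893997 to 81990026 and the HOXC members span chromosome 5 from 19151096 to 19268267. The HOXB members span chromosome 12 from 24784953 to 24950661, and the HOXA members lie on chromosome 18. In knock-in positive cells HOXD members made up 67.7% of the summed HOX FPKM and HOXC members 25.0%, which left 4.0% for HOXA and 3.28% for HOXB. The HOXD share was 64.1% with Activin A and 67.1% with SB431542. In WT libraries 1 to 3 it was 54.4%, 74.6% and 4.95%, and in WT library 3 HOXA members were the largest part, at 43.6%. The shares of WT libraries 1 and 3 rest on HOX sums of only 0.855 and 0.862 FPKM. No difference in pattern is read from them. Over the WT libraries together the HOXD share was 65.4%, and 29.6% without library 2. By position in the cluster, the 13 members of paralogue groups 4 to 8 gave 77.8% of the sum in knock-in positive cells, the 8 members of groups 1 to 3 gave 10.0% and the 14 members of groups 9 to 13 gave 12.2%.

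Within the expressed set the order of levels was alike in the 3 groups of knock-in positive cells. HOXD8 had the highest mean, at 4.61 ± 0.652 FPKM (SD, n = 3) in untreated knock-in positive cells, 4.48 ± 0.814 with Activin A and 4.24 ± 1.04 with SB431542. With Activin A its range overlapped that of HOXC6, and in Activin A library 2 HOXC6 (3.860) was just above HOXD8 (3.850). HOXC6 came next and HOXD4 after it, and their ranges over libraries overlapped in the untreated and the Activin A libraries but not with SB431542. HOXD3, HOXD9 and HOXA7 followed in the untreated and the SB431542 libraries, and with Activin A HOXB13 stood between HOXD9 and HOXA7 with overlapping ranges. HOXD8, HOXC6 and HOXD4 together gave 72.1% of the summed HOX FPKM in the untreated knock-in group. In WT they gave 73.5% over the 3 libraries, most of it from library 2, and 43.6% over libraries 1 and 3. These are low levels for this transcriptome: the median gene tested read 6.93 FPKM in knock-in positive cells, and HOXD8 stood at the 40.6th percentile of the genes tested there and at the 19.3rd in WT.

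Knock-in positive cells had more HOX RNA than WT cells, and WT library 2 lay between the other WT libraries and the knock-in libraries. The summed FPKM of the 35 members was 15.4, 12.6 and 11.2 in knock-in libraries 1 to 3 and 0.855, 6.64 and 0.862 in WT libraries 1 to 3. All 3 knock-in libraries were above all WT libraries, and WT library 2 held several times the HOX RNA of the other WT libraries. The ratio of the group means was therefore 4.69 against all WT libraries, 15.2 against WT libraries 1 and 3 and 1.97 against WT library 2. No test was made on this sum.

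**Figure D2:**
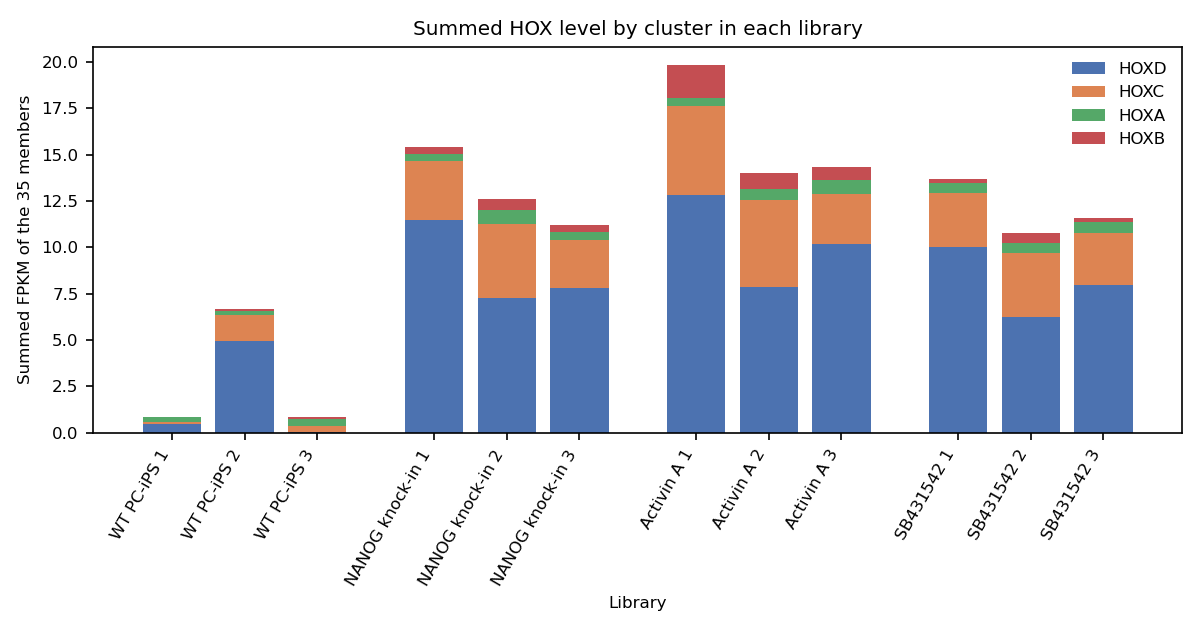
Summed FPKM of the 35 HOX members in each library (bars, starting at 0), split by cluster. WT libraries 1 and 3 lie at 0.855 and 0.862, WT library 2 at 6.64, and the 9 libraries of knock-in positive cells between 10.8 and 19.8, with HOXD the largest part of each of these 9.

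WT library 2 stood apart in most members, not in 1 gene alone. It had the highest WT value for 11 of the 14 expressed members. The exceptions were HOXA7 and HOXB13, both highest in WT library 3, and HOXB4, listed at 0 in all WT libraries. Over the 225 genes called higher in knock-in positive cells, WT library 2 was the highest WT library for 20% and WT library 3 for 56.4%. Over the 6980 genes tested with a higher mean log2 value in knock-in positive cells, called or not, these shares were 29.4% and 47.1%. WT library 2 was also the shallowest of the WT libraries, at a relative depth of 0.564 against 0.626 and 0.635. Pericyte marker sums in WT libraries 1 to 3 were 46.1, 58.8 and 55.03 FPKM, and fibroblast marker sums were 27.7, 34.5 and 44.4. Neural marker sums were 160, 188 and 154, highest in library 2, with PAX6 at 14.1, 26.8 and 8.96. The summed retinoic acid pathway genes read 115, 274 and 161, and this order was that of CRABP1, a retinoic acid binding protein, at 40.3, 211 and 83.2. Without CRABP1 the sums were 75.1, 62.3 and 77.4, lowest in library 2. Whether any of these bears on its HOX level was not tested.

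HOXC6, a central member that acts in the thoracic region, rose in knock-in positive cells and was the only HOX gene called. It read 2.77, 3.08 and 2.15 FPKM in knock-in libraries 1 to 3 and 0, 1.16 and 0.279 in WT libraries 1 to 3. Every knock-in library was above every WT library. The log2 fold change of FPKM + 1 was 1.38 (SE 0.27, 95% interval 0.74 to 2.02, limma adjusted p = 0.0323). A call needed a log2 fold change of 1 or more in size together with an adjusted p no higher than 0.05, and 2.31% of the 14014 genes tested were called, 1.61% higher and 0.706% lower. The HOXC6 call was lost when any library but WT library 2 was left out, where the limma adjusted p was 0.0539 (knock-in 3), 0.0547 (WT 3), 0.0771 (WT 1), 0.104 (knock-in 2) or 0.106 (knock-in 1). Without WT library 2 it was 0.0142, with a log2 fold change of 1.69. The call was also lost with no filter on low values (limma adjusted p = 0.0619) and with 0.1 (0.0662) or 0.01 (0.129) added before taking log2.

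HOXD8, the central HOXD gene with the highest level, did not pass the adjusted threshold. It read 5.36, 4.22 and 4.25 FPKM in knock-in libraries 1 to 3 and 0.187, 2.67 and 0.0287 in WT libraries 1 to 3. The groups did not overlap, but the WT values spread widely, from 0.0287 to 2.67. The log2 fold change was 1.76 (SE 0.45, 95% interval 0.72 to 2.80, limma adjusted p = 0.0564). Without WT library 2 it was 2.34 with a limma adjusted p of 0.00565, and HOXD8 was then called.

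HOXD3 and HOXD9, of the same cluster, passed the adjusted p but not the fold threshold. With HOXC6 they were the 3 of 8 members tested that were higher at an adjusted p of at most 0.05, beside 4.88% of all genes tested, and nothing is read from this count because HOXD9 passed the filter only through its knock-in libraries. HOXD3, an anterior gene, read 1.77, 1.03 and 0.827 FPKM in the knock-in and 0.0250, 0.360 and 0 in the WT libraries. HOXD9, a posterior gene known for patterning the proximal limb, read 0.806, 0.652 and 0.704 in the knock-in and 0, 0.0829 and 0 in the WT libraries. Neither gene overlapped between the groups, and both were near or at 0 in WT libraries 1 and 3. The log2 fold change was 0.96 for HOXD3 (SE 0.19, limma adjusted p = 0.0316) and 0.74 for HOXD9 (SE 0.090, limma adjusted p = 0.00919). Because 1 is added before taking log2, the change of such low genes is understated, and with 0.1 added instead both were called, at 2.80 (SE 0.60, limma adjusted p = 0.0362) and 2.74 (SE 0.36, limma adjusted p = 0.0103). With 0.01 added HOXD9 was called (limma adjusted p = 0.03001) and HOXD3 was not (0.0657). Since HOXD9 passed the filter only through its knock-in libraries, nothing is read from its p values or calls. The adjusted p of HOXD3 was also above 0.05 without a filter (0.0556), with the library number as a block (0.0594) and without WT library 3 (0.0545), knock-in 2 (0.0852), knock-in 1 (0.0903) or WT library 1 (0.0913).

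Several members share their RefSeq span with another gene. The RefSeq span of HOXD9, chromosome 15 from 81910415 to 81926276, contains HOXD10 and overlaps HOXD11, so reads could be shared among these genes. HOXC6 and HOXA7 each overlap a long non-coding RNA gene, and 5 of the 11 expressed members with a RefSeq position overlap another gene. Whether the counting used strand is not given in the sources used here.

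HOXD4, which marks the hindbrain and neck level, overlapped between the groups. It read 3.35, 1.11 and 1.92 FPKM in knock-in libraries 1 to 3 and 0.253, 1.57 and 0 in WT libraries 1 to 3. WT library 2 was above knock-in library 2. The log2 fold change was 1.02 (SE 0.39, limma adjusted p = 0.137).

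The posterior genes HOXC10 and HOXB13 were detected mainly in knock-in positive cells. HOXC10, active at lumbar and hindlimb level, read 0.228, 0.547 and 0.251 FPKM in the knock-in and 0, 0.0470 and 0 in the WT libraries. HOXB13, a tail gene also known from prostate and hindgut, read 0.154, 0.261 and 0.235 in the knock-in and 0, 0 and 0.0269 in the WT libraries. Their groups did not overlap, and the log2 fold changes were 0.39 (SE 0.11, limma adjusted p = 0.0707) and 0.27 (SE 0.079, limma adjusted p = 0.0802). With 0.1 added before taking log2, both were called, at 1.89 (limma adjusted p = 0.0359) and 1.53 (limma adjusted p = 0.0407), whereas HOXC6 was not (limma adjusted p = 0.0662). With 0.01 added HOXC10 was called (limma adjusted p = 0.0468) and HOXB13 was not (0.0501). With 0.1 added, HOX genes called higher numbered 4, beside 2.47% of all genes tested. HOXD9, HOXC10 and HOXB13 passed the filter only through their knock-in libraries. Nothing is therefore read from this count, or from the p values and calls of HOXC10 and HOXB13.

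HOXA7 was the HOXA gene with the highest level and had the smallest log2 fold change of the members tested. It read 0.202, 0.503 and 0.393 FPKM in knock-in libraries 1 to 3 and 0.247, 0.152 and 0.261 in WT libraries 1 to 3. The groups overlapped (log2 fold change 0.16, SE 0.11, 95% interval -0.10 to 0.41, limma adjusted p = 0.372). HOXA7 was also the only member at 0.1 FPKM or more in all 3 WT libraries.

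**Figure D3:**
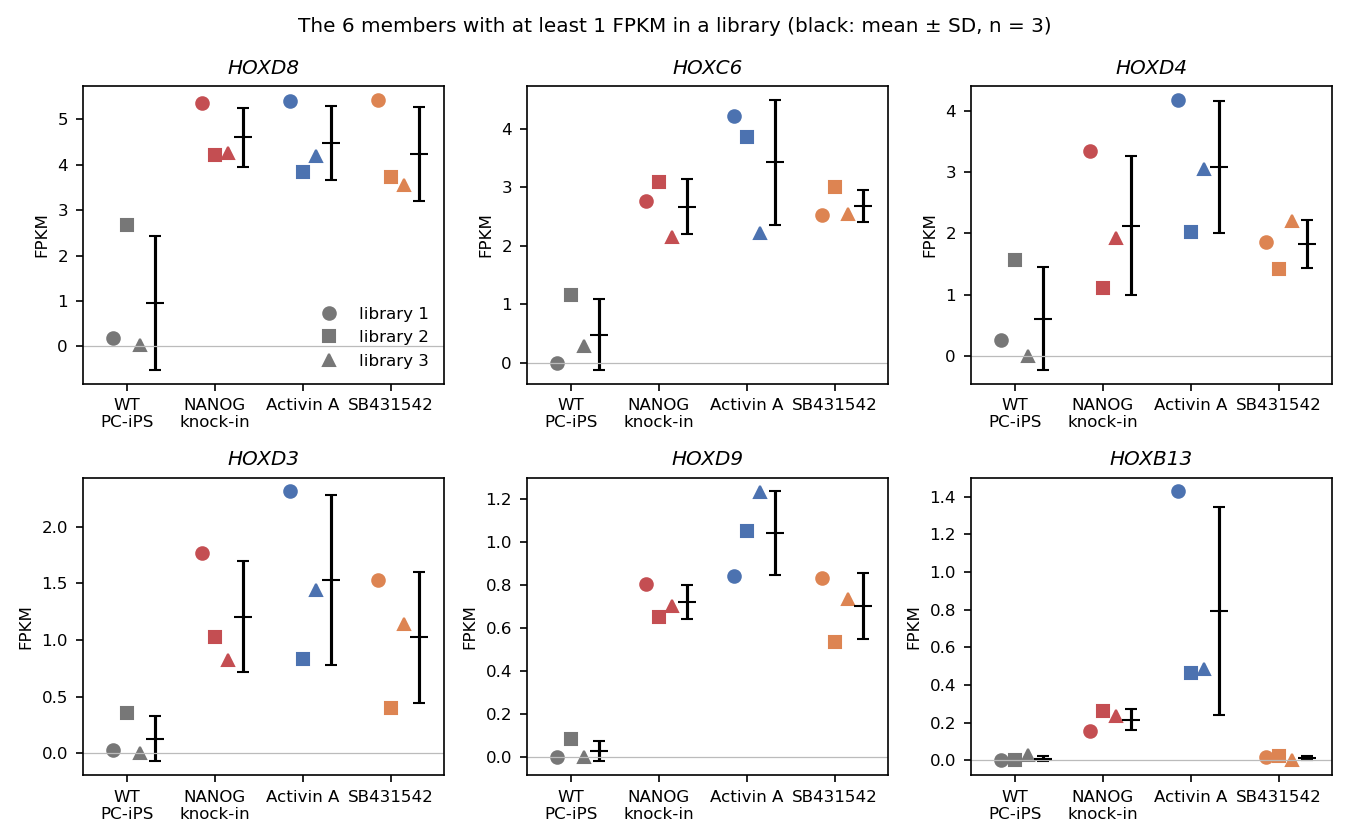
FPKM of the 6 HOX members that reached 1 FPKM in at least 1 library, by group, with 1 point per library (circle, square and triangle for libraries 1, 2 and 3) and the mean ± SD (n = 3) in black. WT library 2 lies above the other WT libraries in every panel but HOXB13, and HOXB13 is near 0 in the WT and SB431542 groups and highest with Activin A.

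These 8 genes were the members that passed the filter, which asked 3 or more of the 6 libraries for a value of 0.1 FPKM. The other 27 did not, and since most WT values were below 0.1, a member could pass mainly through the knock-in libraries, and HOXD9, HOXC10 and HOXB13 passed only through them. HOXA7 was above 0.1 in all 3 WT libraries, HOXD8, HOXD4 and HOXC6 in 2 and HOXD3 in 1. All 8 had their higher mean in the knock-in group, as 49.8% of all genes tested did, 7 of them at an unadjusted p of at most 0.05 (16.1% of all genes tested were higher at this level) and none was lower at it (12.5%). Their median log2 fold change was 0.85, beside -0.0014 for all genes tested. Because HOXD9, HOXC10 and HOXB13 are among the 8, these counts and this median are a description only, and nothing is read from them. Over all 35 members the knock-in mean was higher for 20, lower for 9 and equal for 6, and the groups did not overlap for 9 in the higher and 1 in the lower direction. No share over all genes was worked out for these counts, which include members below the filter, so nothing is read from them. Of the 8 tested, 6 did not overlap in the higher and 0 in the lower direction, beside 19% and 16.7% of all genes tested. Those 6 include HOXD9, HOXC10 and HOXB13, so nothing is read from this count either.

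The members that did not pass the filter were small in level. HOXB4, HOXB9, HOXC4, HOXC5, HOXD1 and HOXD10 were expressed in some group but had group means of at most 0.139 FPKM in knock-in positive and 0.0852 in WT cells. HOXB9 (0.112, 0.126 and 0.0813 against 0.0177, 0.0390 and 0) and HOXD1 (0.0844, 0.125 and 0.0896 against 0, 0.0231 and 0) did not overlap between knock-in and WT libraries 1 to 3. HOXA11 did not overlap either and was listed at 0 in all WT libraries. HOXD10 had its highest value of this comparison, 0.256, in WT library 2. The non-overlapping member in the lower direction was HOXA13, below 0.036 FPKM in all libraries. With 3 libraries against 3 an exact two-sided permutation test cannot give a p below 0.1, which each of the 10 non-overlapping members reached.

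No HOX gene was called between Activin A and SB431542 treated cells. Limma called 0 of the 11 members tested and 0.0929% of the 13999 genes tested, 0.0571% higher with Activin A and 0.0357% lower, and 1 member, HOXB13, was higher at an unadjusted p of at most 0.05 (6.07% of all genes tested). HOXB13 passed the filter only through its Activin A libraries, so nothing is read from that count. The median log2 fold change was 0.14 over these 11 members and -0.0040 over all genes tested, and 10 of the 11 members, beside 49.1% of all genes tested, were higher. With HOXB13 among the 11, both are given as a description only. This fit left out the pairing of the libraries by number. With the library number as a block in the fit, limma called 99 genes in place of 13, and 0 HOX members. Over all 35 members the mean was higher with Activin A for 18, lower for 9 and equal for 8. No share over all genes was worked out for these counts, so nothing is read from them. The summed HOX FPKM was 19.8, 14.0 and 14.3 with Activin A and 13.7, 10.8 and 11.6 with SB431542, so the lowest Activin A library was just above the highest SB431542 library.

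HOXB13 had the largest log2 fold change of the members tested between the treatments. It read 1.43, 0.463 and 0.487 FPKM in Activin A libraries 1 to 3 and 0.0180, 0.0203 and 0 in SB431542 libraries 1 to 3. All Activin A values were far above the SB431542 values, and Activin A library 1 was well above the other Activin A libraries. The log2 fold change of FPKM + 1 was 0.78 (SE 0.20, 95% interval 0.31 to 1.25, limma adjusted p = 0.198). Fitted with the library number as a block it was 0.78 with a limma adjusted p of 0.0814, and with 0.1 added before taking log2 it was 2.83 (SE 0.43, limma adjusted p = 0.0901). Since HOXB13 passed the filter only through its Activin A libraries, nothing is read from these p values. The 3 untreated knock-in libraries, at 0.154 to 0.261 FPKM, lay between the treatments, but they stand in the other table and were not tested against them.

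The 2 highest members overlapped between the treatments. HOXD8 read 5.40, 3.85 and 4.19 FPKM with Activin A and 5.44, 3.73 and 3.55 with SB431542 (log2 fold change 0.07, SE 0.18, 95% interval -0.35 to 0.50, limma adjusted p = 0.895). HOXC6 read 4.22, 3.86 and 2.21 with Activin A and 2.52, 3.001 and 2.54 with SB431542 (0.24, SE 0.20, 95% interval -0.24 to 0.71, limma adjusted p = 0.653). The intervals of both genes exclude a change of 1 in either direction.

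HOXD4 and HOXD3 had larger fitted differences and also overlapped between the treatments. HOXD4 read 4.19, 2.03 and 3.05 FPKM with Activin A and 1.85, 1.42 and 2.20 with SB431542 (log2 fold change 0.51, SE 0.22, 95% interval -0.01 to 1.02, limma adjusted p = 0.396). HOXD3 read 2.32, 0.830 and 1.44 with Activin A and 1.53, 0.398 and 1.14 with SB431542 (0.32, SE 0.29, 95% interval -0.36 to 1.01, limma adjusted p = 0.672). Within each library number both genes were higher with Activin A. With the library number as a block the interval was 0.15 to 0.87 for HOXD4 (limma adjusted p = 0.128) and 0.10 to 0.55 for HOXD3 (limma adjusted p = 0.124), so both intervals then stayed below 1.

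Among the posterior members, HOXD9 and HOXC10 did not overlap between the treatments. HOXD9 read 0.842, 1.05 and 1.23 FPKM with Activin A and 0.835, 0.535 and 0.738 with SB431542 (log2 fold change 0.26, SE 0.11, limma adjusted p = 0.404). HOXC10 read 0.213, 0.424 and 0.195 with Activin A and 0.185, 0.188 and 0.0943 with SB431542 (0.14, SE 0.092, limma adjusted p = 0.564). The gaps between the groups were narrow in both. With HOXB13 these were 3 of the 11 members tested that did not overlap in the higher direction, beside 9.19% of all genes tested, and 0 of the 11 did not overlap in the lower direction (10.8%). Since HOXB13 passed the filter only through its Activin A libraries, nothing is read from this count. Among the members below the filter, HOXD10 and HOXD13 did not overlap in the lower direction.

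**Figure D4:**
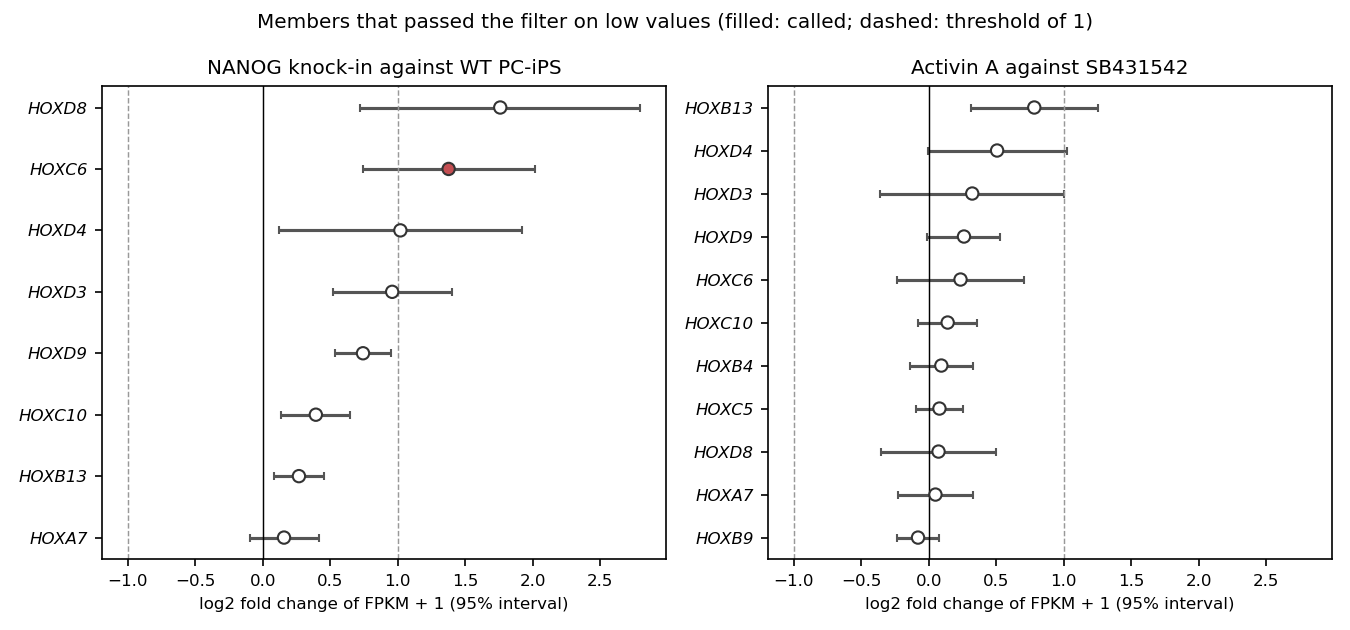
Log2 fold change of FPKM + 1 with its 95% interval from limma for the HOX members that passed the filter, 8 in the comparison of knock-in positive with WT cells (left) and 11 in that of Activin A with SB431542 (right), with dashed lines at -1 and 1. Only HOXC6 on the left was called (filled), and on the right none was, where HOXB13 had passed the filter only through its Activin A libraries.

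The same library number was highest in all 3 groups of knock-in positive cells for 5 of the 14 expressed members, beside 36.5% of the 14813 genes with a group mean of at least 0.1 FPKM. In the untreated knock-in lines, the Activin A libraries and the SB431542 libraries alike, the summed HOXD FPKM was highest in number 1 and lowest in number 2, at 11.5, 7.25 and 7.82 for numbers 1 to 3 in the untreated lines, 12.8, 7.86 and 10.2 with Activin A and 10.0, 6.22 and 7.95 with SB431542. The summed HOXC FPKM was lowest in number 3 in all 3 groups (2.60, 2.67 and 2.79). The HOXA and HOXC sums had no number that was highest in all 3 groups, the HOXB sum none that was highest or lowest, and the total none that was lowest. The 5 members were HOXD3 and HOXD8 with number 1 and HOXB4, HOXC5 and HOXC10 with number 2. For 4 members, beside 36.0% of those genes, the same number was lowest in all 3 groups: number 1 for HOXA7, number 2 for HOXD4 and number 3 for HOXC4 and HOXC5. Whether a treated library with a given number came from the knock-in line of that number is not given in the sources used here.

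The library number was tested within the Activin A and SB431542 libraries, with treatment in the model. The limma F test gave an adjusted p of at most 0.05 for 0 of 11 members, beside 1.54% of all genes tested, and an unadjusted p of at most 0.05 for 2, beside 24.6% of all genes tested. These were HOXD3, which was lower by 0.86 in number 2 and by 0.34 in number 3 than in number 1 on the log2 scale (limma adjusted p = 0.0592), and HOXD8, lower by 0.42 and by 0.40 (limma adjusted p = 0.143).

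HOX cofactors, HOX activators and retinoic acid pathway genes held no called gene. None of the 9 TALE homeodomain cofactors of HOX proteins (PBX, MEIS and PKNOX genes) was called by limma in either comparison, although 3 were lower in knock-in positive cells at an unadjusted p of at most 0.05 and 1 was higher with Activin A. Their median log2 fold change was -0.47 in knock-in positive against WT cells, and their summed level was 213 to 220 FPKM in WT and 162 to 206 in the knock-in libraries, above the summed HOX FPKM in each of these libraries. Of 16 listed HOX activators (CDX, trithorax and H3K27 demethylase genes) 13 were tested and 0 called in either comparison, with 2 higher and 1 lower in the knock-in group, and 0 between the treatments, at an unadjusted p of at most 0.05. CDX2 and CDX4, direct activators of central HOX genes in the embryo, were listed at 0 in all 12 libraries, and the third CDX gene, CDX1, read 0.0829, 0.242 and 0.133 FPKM in the knock-in libraries and 0 in the WT libraries. Of 18 retinoic acid pathway genes, whose signal opens the clusters from the anterior end, 14 were tested in knock-in positive against WT cells with 0 called (4 higher and 2 lower at an unadjusted p of at most 0.05). With Activin A against SB431542, 15 were tested with 0 called and 0 at that unadjusted level.

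No gene flanking the clusters was called. Of 16 such genes listed 12 were tested, and limma called 0 in either comparison, with 3 lower in knock-in positive cells and 1 lower with Activin A at an unadjusted p of at most 0.05. EVX2, the gene beyond HOXD13, was listed at 0 in all 12 libraries. EVX1, its counterpart beyond the HOXA cluster, was listed at 0 in the WT and knock-in libraries and read 0.0676, 0.284 and 0.139 FPKM with Activin A and 0, 0.0788 and 0 with SB431542, which overlapped.

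Other homeobox and T-box genes of body position were tested for comparison, and 3 of 16 rose in knock-in positive cells. PRRX2, a limb and facial mesenchyme gene, read 17.6, 19.6 and 13.1 FPKM in the knock-in and 4.32, 4.13 and 9.81 in the WT libraries (log2 fold change 1.40, SE 0.30, limma adjusted p = 0.0387). MSX2, a BMP-responsive homeobox gene, read 1.57, 4.69 and 1.69 against 0.0200, 0.0865 and 0.0307 (1.70, SE 0.29, limma adjusted p = 0.0221). MSX2 passed the filter only through its knock-in libraries, so nothing is read from its p or from the count of 3. EN1, a gene of the midbrain and ventral limb ectoderm, read 5.46, 7.38 and 4.16 against 0.267, 0 and 1.48 (2.16, SE 0.34, limma adjusted p = 0.0193). Among the WT libraries, PRRX2 and EN1 were highest in library 3 and MSX2 in library 2. With Activin A against SB431542 limma called 0 of 18 in this list (2 higher and 1 lower at an unadjusted p of at most 0.05).

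Markers of other cell types moved with the knock-in group and are given beside the HOX values. Of 11 pericyte and mural cell markers tested, limma called PDGFRB, ACTA2, TAGLN and CNN1 higher in the knock-in group, with 6 higher and 0 lower at an unadjusted p of at most 0.05. The sum over the 12 listed genes was 46.1 to 58.8 FPKM in WT and 366 to 523 in the knock-in libraries. Most of the knock-in sum was TAGLN, a smooth muscle actin-binding protein, at 299 to 457 against 15.2 to 26.6 in WT, and without it the sums were 65.2 to 69.1 and 30.9 to 34.0. Of these 12 genes, 2 had the lower mean in the knock-in group, and these were MCAM (11.4, 9.59 and 11.5 against 12.5, 11.8 and 8.93 in WT) and DES, below 1 FPKM in all 6 libraries. Of 10 fibroblast markers tested, DCN, TWIST1 and TWIST2 were called higher, with 6 higher and 1 lower at an unadjusted p of at most 0.05. The fibroblast sums over 14 genes were 27.7 to 44.4 in WT and 64.9 to 89.2 in the knock-in libraries, 6 of the 14 had the lower mean in the knock-in group, among them COL1A1 (0.739, 0.782 and 0.345 against 1.09, 1.46 and 0.838), and FAP was listed at 0 in all 12 libraries. NANOG and LIN28A were called higher among 6 pluripotency markers tested. Of 10 such markers with values, 6 had the higher and 3 the lower mean in the knock-in group. TFAP2A and KRT8 were called higher among 6 trophectoderm and simple epithelial markers tested. Of 10 with values there, 8 had the higher and 1 the lower mean in the knock-in group. PAX6 and DCX were among 3 neural markers called lower of 7 tested. Of 8 neural markers with values, 6 had the lower and 2 the higher mean in the knock-in group. Between Activin A and SB431542, ACTA2 was lower with Activin A and NANOG higher, and the pericyte sums were 344 to 459 FPKM with Activin A and 370 to 488 with SB431542. The fibroblast sums did not overlap, at 88.7 to 112 with Activin A and 57.8 to 62.0 with SB431542, higher in the same group as the summed HOX FPKM. Of the 10 fibroblast markers tested there limma called 0, with 4 higher and 1 lower with Activin A at an unadjusted p of at most 0.05. In bulk libraries fewer cells of a type and less RNA per cell cannot be told apart, and the part of these markers in the HOX differences was not tested.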

How the data were processed

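RNA was sequenced from 12 libraries in 4 groups of 3. The authors used Trim Galore for trimming and HISAT2 2.0.4 for alignment to the Ssc11.1 genome, and computed the deposited FPKM values with StringTie 1.3.3 and the Ensembl release 97 annotation (versions from the submitters' processing notes). The authors tested counts from featureCounts 1.6.4 with DESeq2, which could not be repeated here because the tables used hold FPKM. FPKM is relative to each library's total, so a change in a few abundant genes moves all others.

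Each comparison was tested within 1 table with limma 3.58.1 (R 4.3.3, variance trend, two-sided) on log2(FPKM + 1), for genes that reached 0.1 FPKM in at least 3 of the 6 libraries, with Benjamini-Hochberg adjustment over all genes tested. Tables were drawn up with pandas 2.3.3 and figures with matplotlib 3.10.9 in Python 3.11.15.

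The members and gene lists were chosen with earlier results of these data known. By rule, HOX members were named, those called or reaching 1 FPKM in full, and other genes only where called, besides NANOG; some genes are not reported here. EVX2, CDX2, CDX4 and FAP were named after their values were seen, because they were listed at 0 in all libraries, CDX1 and EVX1 as their relatives, HOXA13 and HOXA11 because their groups did not overlap, and CRABP1, MCAM, DES and COL1A1 for their part in a list.

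Numbers pair the Activin A and SB431542 libraries, since deviations from the group means of libraries with the same number correlated at 0.400, 0.587 and 0.535 across 13999 genes. This pairing comes from the data and the shared numbers in the labels.

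Alternatives were 0.1 or 0.01 as pseudocount, a filter of 1 FPKM or none, values rescaled to TPM or by median ratio, no variance trend, the adjusted p alone, the library number as a block and leaving out each library.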

Additional observations from a re-analysis of the deposited data

How the results depend on the processing

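HOX genes called in knock-in positive against WT cells numbered 4 and 2 with pseudocounts of 0.1 and 0.01, 0 without a filter, 2 with a filter of 1 FPKM, 3 with TPM, 3 by adjusted p alone and 0 to 3 when a library was left out, all of them higher. Nothing is read from the HOX counts that include HOXD9, HOXC10 or HOXB13, which passed the main filter only through their knock-in libraries. All genes called in that comparison were 538 and 501 with these pseudocounts and 199 without a filter. They were 1012 by adjusted p alone and 145 to 446 with a library left out. The library numbers did not pair these groups (correlations -0.02, 0.01 and 0.09), and with the replicate block 232 genes and 1 HOX gene, HOXC6, were called. For Activin A against SB431542, all genes called were 8 with a pseudocount of 0.01, 5 without a filter, 5 with a filter of 1 FPKM, 7 without the variance trend, 99 with the replicate block and 0 to 5 with a library left out, in each case with 0 HOX genes among them. The block changed no HOX call. With a library left out, the log2 fold change of HOXD8 ranged from -0.044 (without Activin A library 1) through -0.020 (without SB431542 library 3) to 0.231, and that of HOXA7 from -0.052 (without Activin A library 3) to 0.153.

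With a mean of 0.5 FPKM, 2 members counted as expressed in WT, 5 in knock-in positive cells, 6 with Activin A and 5 with SB431542. Asking for 0.1 FPKM in every library left 1 in WT and 6 with SB431542, and TPM gave 17 in knock-in positive cells and 17 with SB431542. TPM scales all values up, so the summed HOX level became 7.34 in WT, 34.7 in knock-in positive cells, 42.6 with Activin A and 32.5 with SB431542. The cause of the other changes was not tested. FPKM gives no counting error, and values under 0.1 FPKM rest on few reads.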

Other observations

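Besides the 35 members, 3 HOX genes carried no symbol in the deposited tables and were named only through a table pairing Ensembl identifiers with symbols. HOXC9 read 0.276, 0.386 and 0.328 FPKM in knock-in libraries 1 to 3 and 0.0578, 0.0402 and 0 in WT libraries 1 to 3 (log2 fold change 0.36, SE 0.081, limma adjusted p = 0.0410, under the fold threshold). HOXC9 passed the filter only through its knock-in libraries, so nothing is read from its p. HOXC8 read 0.320, 0.450 and 0.274 against 0, 0.156 and 0.0581 (0.33, SE 0.097, limma adjusted p = 0.0804). Both genes lie between HOXC10 and HOXC6 on chromosome 5, their groups did not overlap, and their knock-in levels were close to that of HOXC10. HOXA9 stayed at or below 0.0237 FPKM in all 12 libraries.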
